A study of Arabidopsis thaliana with 24 samples.

Results

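The mechanosensitive and osmosensing channel genes were 6 Arabidopsis thaliana genes taken by locus identifier from the 32833 genes of the count table: MCA1 (AT4G35920), MCA2 (AT2G17780), OSCA1 (AT4G04340), MSL9 (AT5G19520), MSL10 (AT5G12080) and PIEZO (AT2G48060). They were measured in 24 RNA-seq libraries from roots of accession Col-0, in 8 groups of 3. Seedlings received 2.5 nM isoxaben, an inhibitor of cellulose synthesis in the primary wall, or a mock treatment, on medium with 60 or 6 mM KNO3. In the shift groups the seedlings stood on polyester mesh and were moved on day 5 to isoxaben or mock medium of the same KNO3 level, and in the long-term groups they grew on the treatment medium from the start. Harvest was 6 days after stratification for every group, so shift roots had about a day of isoxaben and long-term roots the whole growth period. The 8 groups were thus shift or long-term roots on 60 or 6 mM KNO3 with isoxaben or mock, all wild type. The mesh and the transfer were part of the shift groups alone, and a change of KNO3 changes nitrate, potassium and osmolarity together. Nothing in the labels says whether the 3 libraries of a group came from separate plates or how many seedlings each pooled, so the p-values measure the spread between these libraries, which may be technical.

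Plant cells press on their walls by turgor, and a weakened wall or a fall in medium osmolarity can stretch the plasma membrane, while a rise in osmolarity draws water out and lowers turgor. Mechanosensitive channels open under membrane tension. MCA1 and MCA2 are plasma membrane proteins that mediate calcium entry, and MCA1 is needed for roots to penetrate hard agar and for several responses to isoxaben. OSCA1 is a calcium-permeable channel gated by hyperosmotic stress, from a family whose members open under membrane tension. MSL9 and MSL10 resemble the bacterial channel MscS, prefer anions and are together required for a stretch-activated current of root cells. PIEZO is the plant member of a family of large stretch-gated cation channels first described in animals, and acts in the root tip of Arabidopsis.

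All isoxaben calls among these genes were in roots on 60 mM KNO3, with 3 of 5 genes tested called in long-term and 2 of 5 in shift roots, where 31.9% and 12.9% of all genes were called. None of the 5 was called on 6 mM, where the shares of all genes were 5.69% in long-term and 0.949% in shift roots, so that 0 of 5 there is near the background. MSL9 was higher with isoxaben at 60 mM in both exposures, MSL10 was lower in both, and MCA1 was lower in long-term roots. OSCA1 and PIEZO did not pass the test for any isoxaben effect, and MCA2 had 0 to 8 counts in a library. A gene was called when its p-value from edgeR's quasi-likelihood test, adjusted by the Benjamini-Hochberg method over 20546 genes, was under 0.05. The depth was 18902538 to 20519913 counts per library, so 3 counts, the floor used here, were at most 0.167 CPM (counts scaled by library size).

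The 250 bases before the annotated start of MSL9, MCA1 and MSL10, the members called for isoxaben, are given 5′ to 3′ on the gene's own strand, from RefSeq's TAIR10.1 assembly. Capitals mark TTGAC (the core of the W-box), ACGTG (the core of the abscisic acid response element) and their reverse complements.
MSL9: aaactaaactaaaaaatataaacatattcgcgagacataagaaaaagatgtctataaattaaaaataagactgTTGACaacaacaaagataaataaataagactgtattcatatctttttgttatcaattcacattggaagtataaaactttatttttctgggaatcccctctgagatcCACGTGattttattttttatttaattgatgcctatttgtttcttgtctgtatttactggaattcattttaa
MCA1: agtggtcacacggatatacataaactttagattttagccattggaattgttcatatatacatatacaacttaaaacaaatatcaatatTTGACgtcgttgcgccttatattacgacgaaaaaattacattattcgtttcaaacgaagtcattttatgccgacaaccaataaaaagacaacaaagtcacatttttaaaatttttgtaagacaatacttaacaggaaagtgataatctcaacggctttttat
MSL10: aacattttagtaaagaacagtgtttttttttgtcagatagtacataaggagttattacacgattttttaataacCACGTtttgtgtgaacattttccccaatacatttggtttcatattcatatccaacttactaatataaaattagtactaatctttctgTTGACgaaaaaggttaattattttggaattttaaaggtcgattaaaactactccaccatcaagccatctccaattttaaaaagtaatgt
The windows searched ran from 250 bases before to 50 bases after the start, on both strands, and 3 motifs were searched. TTGAC was in 50.48% of 27443 promoters of this length, ACGTG in 26.72% and CGCGT, bound by calmodulin-binding transcription activators, in 8.7%. MSL9 held 1 TTGAC, 177 bases before the start, and a palindrome 71 bases before it that counts as ACGTG on both strands. MCA1 held 1 TTGAC and no other motif. MSL10 held 3 TTGAC and 1 ACGTG, of which the TTGAC copies next to and after the start are not wholly inside the stretch printed. Of the other members, OSCA1 held 2 TTGAC, MCA2 held 1 ACGTG and 3 CGCGT matches over both strands, and PIEZO held none of the 3 motifs. These matches are a description of the letters, and whether they bear on the results was not tested.

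Levels per length set the genes in order. CPM per kb of exon had a median over the 24 libraries of 41.2 for MSL9, 20.5 for OSCA1, 16.5 for MCA1, 14.2 for MSL10, 10.2 for PIEZO and 0.0542 for MCA2. The ranges over libraries were 36.1 to 56.1 for MSL9 and 16.9 to 22.9 for OSCA1 and did not overlap. The range was 11.6 to 18.6 for MCA1, which overlapped OSCA1, and 12.4 to 18.0 for MSL10, which overlapped MCA1. PIEZO ranged over 8.75 to 11.8, below every MSL10 library. MSL9 was thus the most abundant of the 6 transcripts per length, and PIEZO the least abundant of those measured well.

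**Figure D1:**
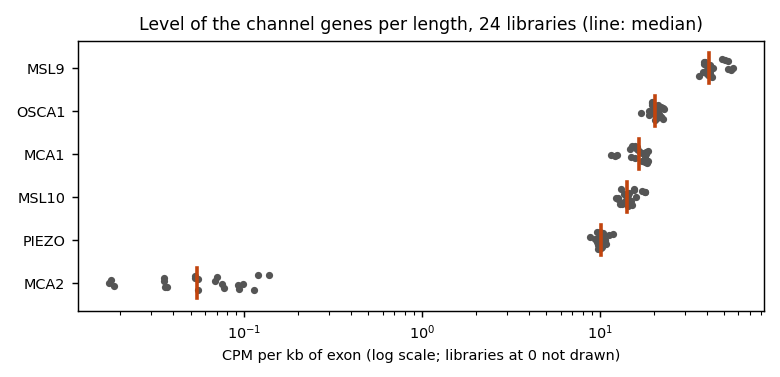
Level of each channel gene in CPM per kb of exon (log axis), 1 point per library with counts above 0 and a line at the median over 24 libraries. MSL9 lies highest, with a median of 41.2, and MCA2 lies far below the others, with a median of 0.0542.

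The libraries carried root markers at high level (summed NRT2.1, SHR, SCR, PLT1, PLT2 and WOX5, 722 to 4312 CPM), and 12 shoot markers summed to 111 to 621 CPM. Some root markers moved too. The sum of all 6 in long-term roots on 60 mM KNO3 was 722 to 1462 CPM with isoxaben and 2763 to 3606 CPM with mock. NRT2.1 (log2 fold change -1.61) and WOX5 (-0.81) were called lower there and PLT2 (0.49) higher. SHR (-0.080), SCR (-0.22) and PLT1 (0.058) were not called there, and the median of the 6 was -0.15. The fall in the sum was thus not a fall of the whole list. In shift roots on 60 mM, 2 of 6 root markers were higher. In long-term roots on 60 mM KNO3 the lists of other root cell types moved with isoxaben: 5 of 5 root hair markers were higher (summed level 1070 to 1762 CPM with isoxaben and 313 to 403 CPM with mock), 5 of 5 xylem markers were lower (179 to 199 CPM with isoxaben and 333 to 371 CPM with mock) and 5 of 5 endodermis markers were lower (191 to 289 CPM with isoxaben and 469 to 568 CPM with mock). There 3 of 4 division markers, 3 of 3 lateral root markers and 4 of 12 shoot markers were also lower, and 1 of 3 root cap markers was higher. In shift roots on 60 mM KNO3, 5 of 5 endodermis markers were lower (143 to 210 CPM with isoxaben and 336 to 409 CPM with mock), 2 of 3 root cap markers, 1 of 4 division markers and 1 of 3 lateral root markers were lower, 1 of 5 root hair markers was higher, and none of 5 xylem markers was called. On 6 mM KNO3, where no channel gene was called, 4 of 5 root hair markers were higher in long-term roots (828 to 882 CPM with isoxaben and 362 to 451 CPM with mock) and 2 of 5 xylem markers were lower (275 to 285 CPM with isoxaben and 311 to 347 CPM with mock). There 1 of 5 endodermis markers was lower, while the summed level was 420 to 468 CPM with isoxaben and 323 to 360 CPM with mock. In the same long-term roots 1 of 4 division markers, 1 of 3 lateral root markers and 1 of 6 root markers (WOX5) were lower. In shift roots on 6 mM, 1 of 5 endodermis markers was lower and no other marker was called. No list had all its markers at 0. Fewer cells of a type and less RNA per cell cannot be told apart in bulk libraries, and the part of these shifts in the results for the channel genes was not tested.

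**Figure D2:**
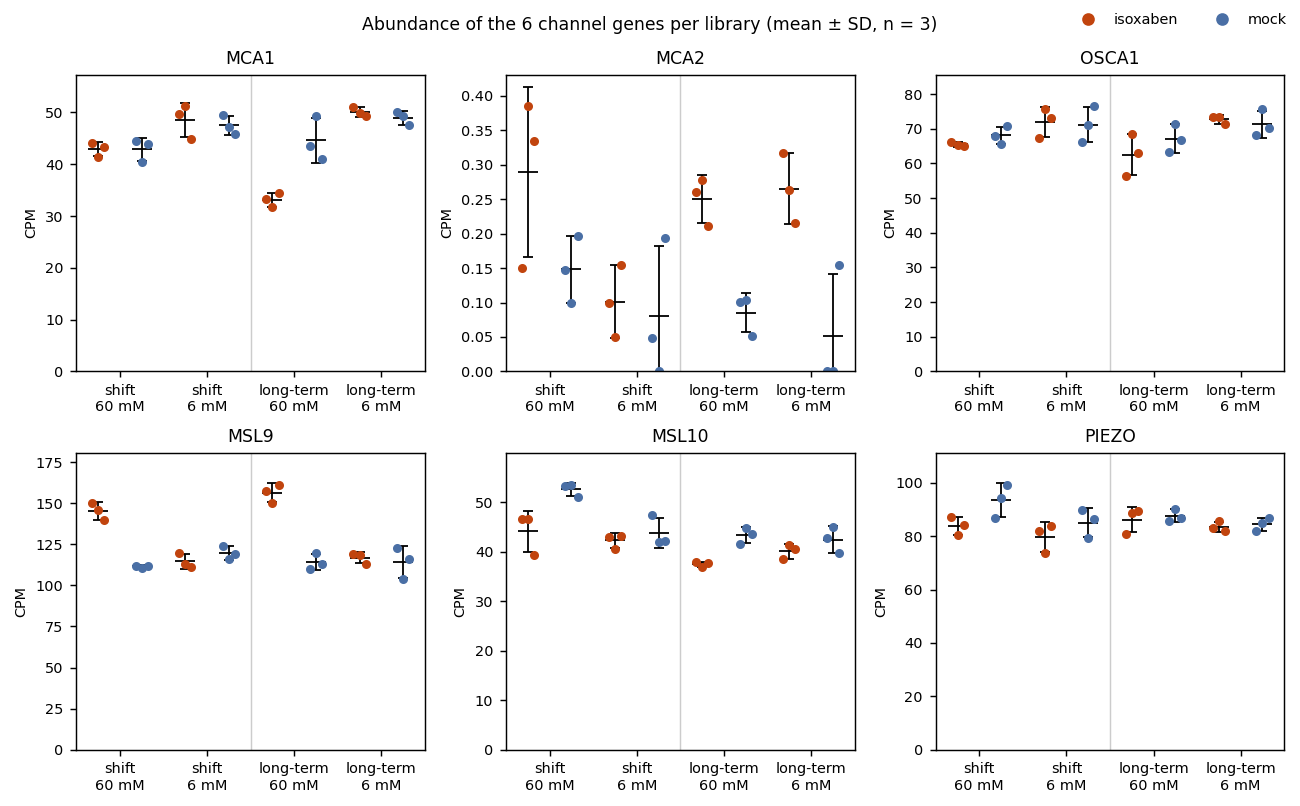
CPM of each channel gene in every library (points), with mean and SD of 3 libraries, by exposure and KNO3 level, isoxaben left of mock. MSL9 is higher with isoxaben at 60 mM in both exposures, MCA1 is lower with isoxaben in the long-term 60 mM group, and MCA2 lies under 0.4 CPM throughout.

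MSL9 is the better expressed of the paired MscS-like channels of root cells. In long-term roots on 60 mM KNO3 it had 158, 150 and 161 CPM with isoxaben and 110, 119 and 113 CPM with mock. It had 150, 146 and 140 CPM with isoxaben and 112, 111 and 112 CPM with mock in shift roots on 60 mM KNO3. In both exposures every isoxaben library lay above every mock library. The log2 fold change was 0.46 (SE 0.058, adjusted p = 4.16e-07 by edgeR) in long-term roots, where 31.9% of all genes were called, and 0.38 (SE 0.058, adjusted p = 2.04e-05 by edgeR) in shift roots, where 12.9% were called.

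On 6 mM KNO3, MSL9 had 119, 118 and 113 CPM with isoxaben and 123, 104 and 116 CPM with mock in long-term roots. Shift roots on 6 mM had 120, 113 and 111 CPM of MSL9 with isoxaben and 124, 116 and 119 CPM with mock. The groups overlapped in both exposures. The log2 fold change was 0.034 (SE 0.058, adjusted p = 0.872 by edgeR) in long-term roots, with 5.69% of genes called, and -0.060 (SE 0.058, adjusted p = 0.796 by edgeR) in shift roots, with 0.949% called.

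The difference in the MSL9 response between KNO3 levels was itself tested. The isoxaben effect was larger at 60 than at 6 mM by 0.42 on the log2 scale in long-term roots (SE 0.082, adjusted p = 0.000712 by edgeR) and by 0.44 in shift roots (SE 0.082, adjusted p = 0.00147 by edgeR). These interactions were called for 11.8% of all genes in long-term roots and 3.5% in shift roots. The response in long-term minus that in shift roots was 0.075 at 60 mM (SE 0.082, adjusted p = 0.655 by edgeR), which did not pass the test.

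The 3′ end of MSL9 overlaps that of ACL5 (AT5G19530), a thermospermine synthase gene active in xylem and lying on the opposite strand, over 196 of the 2878 exon bases of MSL9. Reads from either gene cannot be told apart there unless the counting used strand, which is not given in the sources used here. ACL5 averaged 28.6 ± 3.1 CPM with isoxaben and 39.1 ± 1.5 CPM with mock in long-term roots on 60 mM KNO3 (SD, n = 3 each), a log2 fold change of -0.45 (adjusted p = 0.00275 by edgeR), opposite in sign to that of MSL9. In shift roots on 60 mM it averaged 48.7 ± 3.1 CPM with isoxaben and 44.9 ± 3.4 CPM with mock, and was not called (adjusted p = 0.601 by edgeR).

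MSL10 is the partner of MSL9 in the stretch-activated current of root cells, and takes part in responses to cell swelling. Long-term roots on 60 mM KNO3 had 37.8, 36.8 and 37.7 CPM of MSL10 with isoxaben and 41.5, 44.7 and 43.6 CPM with mock. Shift roots on 60 mM had 46.5, 46.6 and 39.4 CPM of MSL10 with isoxaben and 53.2, 53.5 and 51.1 CPM with mock. The isoxaben libraries lay below the mock libraries in both exposures. The log2 fold change was -0.21 (SE 0.068, adjusted p = 0.0191 by edgeR) in long-term roots and -0.25 (SE 0.067, adjusted p = 0.0091 by edgeR) in shift roots.

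Both calls lay near the threshold. In long-term roots the MSL10 log2 fold change was -0.19 without mock replicate 2 (adjusted p = 0.0758), -0.20 without mock replicate 3 (0.0536) and -0.20 without isoxaben replicate 2 (0.0516). In shift roots it was -0.18 without isoxaben replicate 3 (adjusted p = 0.107) and -0.26 when only the groups compared entered the fit (0.0573). The fold change thus stayed close to that of all libraries in most of these fits, and was smallest without shift isoxaben replicate 3. On 6 mM KNO3, MSL10 averaged 40.1 ± 1.5 CPM with isoxaben and 42.4 ± 2.7 CPM with mock in long-term roots, and 42.3 ± 1.5 CPM with isoxaben and 43.8 ± 3.1 CPM with mock in shift roots (SD, n = 3 each). Neither passed the test (adjusted p = 0.658 and 0.859 by edgeR), and the difference in response between KNO3 levels was not called either (log2 difference -0.13, SE 0.096, in long-term and -0.20, SE 0.095, in shift roots).

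The ratio of MSL9 to MSL10 within a library, which no library scaling can change, was taken after their opposite directions had been seen and is given as a description. CPM per kb of MSL9 over that of MSL10 averaged 4.33 ± 0.10 with isoxaben and 2.73 ± 0.041 with mock in long-term roots on 60 mM KNO3 (SD, n = 3 each). It averaged 3.42 ± 0.23 with isoxaben and 2.20 ± 0.066 with mock in shift roots on 60 mM. The groups had to be apart there, since they were apart for each gene. On 6 mM the ratio was 3.02 ± 0.16 with isoxaben and 2.80 ± 0.36 with mock in long-term roots, and 2.81 ± 0.13 with isoxaben and 2.83 ± 0.11 with mock in shift roots, with overlapping libraries.

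MCA1 supplies calcium entry and has been tied genetically to isoxaben responses. Long-term roots on 60 mM KNO3 had 33.3, 31.8 and 34.4 CPM of MCA1 with isoxaben and 43.4, 49.3 and 41.0 CPM with mock. Shift roots on 60 mM had 44.1, 41.4 and 43.3 CPM of MCA1 with isoxaben and 44.6, 40.4 and 43.8 CPM with mock. The groups were apart in long-term roots and overlapped in shift roots. The log2 fold change was -0.43 (SE 0.067, adjusted p = 1.1e-05 by edgeR) in long-term roots and -0.00084 (SE 0.066, adjusted p = 0.996 by edgeR) in shift roots.

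On 6 mM KNO3, MCA1 averaged 50.1 ± 0.93 CPM with isoxaben and 49.0 ± 1.4 CPM with mock in long-term roots, and 48.5 ± 3.3 CPM with isoxaben and 47.5 ± 1.9 CPM with mock in shift roots (SD, n = 3 each). Neither comparison was called. The lowest of the 8 groups was long-term isoxaben at 60 mM, whose libraries lay below the 21 others. The isoxaben effect at 60 minus that at 6 mM was -0.46 in long-term roots (SE 0.094, adjusted p = 0.00119 by edgeR) and -0.032 in shift roots (SE 0.093, adjusted p = 0.937 by edgeR).

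The effect on MCA1 in long-term minus that in shift roots was -0.43 at 60 mM KNO3 (SE 0.094, adjusted p = 0.00278 by edgeR), where 11.5% of genes were called. At 6 mM it was 0.0016 (SE 0.093, adjusted p = 0.999 by edgeR), with 0.263% of genes called and no channel gene among them. The term for all factors together, the isoxaben by KNO3 interaction in long-term minus that in shift roots, was -0.43 for MCA1 (SE 0.13, adjusted p = 0.093 by edgeR) and was not called for any of the 5 genes tested, with 2.2% of all genes called. MCA1 alone had an unadjusted p under 0.05 for that term.

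**Figure D3:**
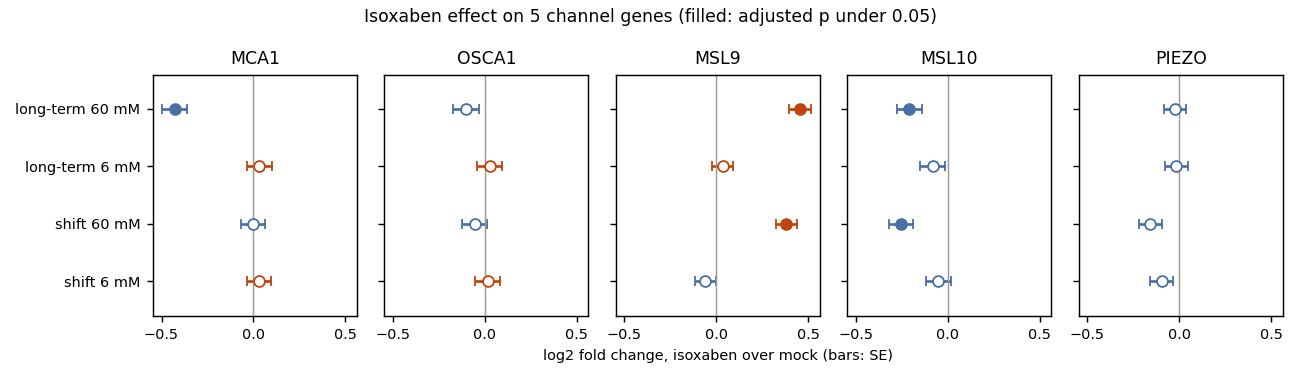
Log2 fold change of isoxaben over mock (x axis, bars are SE) for the 5 channel genes tested, in the 4 combinations of exposure and KNO3, filled where the adjusted p was under 0.05. All 5 filled points are at 60 mM, MSL9 at 0.46 and 0.38, MSL10 at -0.21 and -0.25, and MCA1 at -0.43 in long-term roots.

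MCA2, the close relative of MCA1, was at or near the floor. It had 3 counts or fewer in 14 of 24 libraries and 0 in 3 libraries, which allows at most 0.167 CPM there. The counts in long-term roots were 5, 5 and 4 with isoxaben and 2, 2 and 1 with mock on 60 mM, and 6, 5 and 4 with isoxaben and 0, 0 and 3 with mock on 6 mM. Shift roots had 3, 8 and 7 with isoxaben and 3, 2 and 4 with mock on 60 mM, and 2, 1 and 3 with isoxaben and 1, 0 and 4 with mock on 6 mM. The groups were apart in long-term roots at counts this low and overlapped in shift roots. Over all groups the sum was 53 counts in the 12 isoxaben libraries and 22 counts in the 12 mock libraries. MCA2 did not pass the filter on low counts. In a fit with no such filter its smallest adjusted p over the 4 isoxaben effects was 0.177 by edgeR, at 6 mM in long-term roots, where the unadjusted p was 0.0127.

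OSCA1, the hyperosmolality-gated channel, varied little over the groups. In long-term roots on 60 mM KNO3 it had 56.4, 68.4 and 62.9 CPM with isoxaben and 63.2, 71.4 and 66.9 CPM with mock. These overlapped, and the fitted difference was -0.10 in log2 (SE 0.068, adjusted p = 0.276 by edgeR). The highest of its 8 group means was 1.16 times the lowest. For MCA1 that quotient was 1.51, for MSL9 1.401, for MSL10 1.41 and for PIEZO 1.17.

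PIEZO had 87.1, 80.4 and 84.2 CPM with isoxaben and 87.0, 94.4 and 99.3 CPM with mock in shift roots on 60 mM KNO3. The log2 fold change was -0.16 (SE 0.062, adjusted p = 0.107 by edgeR), and it was called without mock replicate 1 (adjusted p = 0.0436). In long-term roots on 60 mM PIEZO averaged 86.2 ± 4.8 CPM with isoxaben and 87.6 ± 2.4 CPM with mock (SD, n = 3 each), a log2 fold change of -0.023 (SE 0.062). Its first exon shares 9 bases with RPH1 (AT2G48070) on the opposite strand.

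The comparison of 60 with 6 mM KNO3 asks whether the medium moved the channel genes. In long-term isoxaben roots, with 25.6% of genes called, MSL9 was higher on 60 than on 6 mM by 0.42 (SE 0.058, adjusted p = 2.94e-06 by edgeR) and MCA1 was lower, at -0.60 on the log2 scale (SE 0.067, adjusted p = 1.38e-07 by edgeR). OSCA1 had 56.4, 68.4 and 62.9 CPM on 60 mM and 73.4, 73.5 and 71.2 CPM on 6 mM there, with no overlap and a difference of -0.22 in log2 (SE 0.068, adjusted p = 0.0187 by edgeR). That OSCA1 call was lost without 60 mM replicate 1, where the log2 fold change was -0.15 (adjusted p = 0.144). It was also lost, at a log2 fold change of about the same size as with all libraries, without 6 mM replicate 1 (-0.21, adjusted p = 0.0556) or 2 (-0.21, adjusted p = 0.0549) and with only the groups compared in the fit (-0.22, adjusted p = 0.0526). In shift isoxaben roots, with 14% of genes called, MSL9 was higher on 60 mM by 0.34 (SE 0.058, adjusted p = 0.000114 by edgeR). MCA1 had a log2 fold change of -0.18 there (adjusted p = 0.0714 by edgeR) and was called without 6 mM replicate 3 (adjusted p = 0.0328).

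For KNO3 in long-term mock roots there was no call among the 5 genes (edgeR, none had an unadjusted p under 0.05), against 6.77% of all genes. MCA1 was nearest there, with overlapping libraries and a log2 difference of -0.14 (SE 0.066, unadjusted p = 0.0501, adjusted p = 0.261 by edgeR). In shift mock roots, against a background of 8.2%, MSL10 was the member called: it had 53.2, 53.5 and 51.1 CPM on 60 mM and 47.3, 42.0 and 42.1 CPM on 6 mM, with a difference of 0.26 in log2 (SE 0.067, adjusted p = 0.0112 by edgeR). The difference was 0.23 without 6 mM replicate 2 (adjusted p = 0.0625) and 0.24 without replicate 3 of that group (adjusted p = 0.0696). MCA1 and PIEZO had an unadjusted p under 0.05 and were not called. MCA1 had 44.6, 40.4 and 43.8 CPM on 60 mM and 49.5, 47.2 and 45.8 CPM on 6 mM, which did not overlap, with a log2 difference of -0.15 (SE 0.066, adjusted p = 0.197 by edgeR). PIEZO had 87.0, 94.4 and 99.3 CPM on 60 mM and 89.7, 79.2 and 86.4 CPM on 6 mM, which overlapped, with a log2 difference of 0.14 (SE 0.062, adjusted p = 0.205 by edgeR).

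Shift and long-term roots differed in growth on mesh and in the transfer as well as in time on isoxaben. On 6 mM KNO3 no channel gene was called between them by edgeR, with isoxaben (3.1% of all genes) or with mock (0.642%), and none had an unadjusted p under 0.05. In isoxaben roots on 60 mM, with 24.8% of genes called, MCA1 was higher in shift than in long-term roots by 0.37 (SE 0.067, adjusted p = 0.000135 by edgeR). MSL10 was higher by 0.24 (SE 0.068, adjusted p = 0.0104 by edgeR). That difference was 0.20 without shift replicate 1 (adjusted p = 0.0593) or 2 (adjusted p = 0.0697), and 0.25 with only the groups compared in the fit (adjusted p = 0.0727).

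In mock roots on 60 mM, with 3.3% of genes called, MSL10 had 53.2, 53.5 and 51.1 CPM in shift and 41.5, 44.7 and 43.6 CPM in long-term roots, with a difference of 0.28 in log2 (SE 0.067, adjusted p = 0.0155 by edgeR). The difference was of like size, but not called, without long-term replicate 1 (0.25, adjusted p = 0.0809), long-term replicate 3 (0.29, adjusted p = 0.0571) or shift replicate 1 (0.27, adjusted p = 0.0655). The shift mock group on 60 mM was the highest of the 8 for MSL10, and its libraries did not overlap those of any other group. These comparisons share groups with the isoxaben and KNO3 comparisons above.

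The family of MSL9 and MSL10 has 8 other genes, of which 6 were tested. MSL7 and MSL8, known from pollen and reproductive tissue, had 1 and 162 counts in all libraries together. MSL1, of mitochondria, and MSL2 and MSL3, of plastids, were not called for any isoxaben effect. MSL4 averaged 51.3 ± 3.5 CPM with isoxaben and 61.1 ± 1.5 CPM with mock in long-term roots on 60 mM KNO3, and 40.9 ± 3.3 CPM with isoxaben and 61.3 ± 2.0 CPM with mock in shift roots (SD, n = 3 each). It was lower with isoxaben in all 4 combinations of exposure and KNO3, with log2 fold changes of -0.25 and -0.33 in long-term roots on 60 and 6 mM and of -0.58 and -0.36 in shift roots (adjusted p at most 0.0048 by edgeR). In mock roots MSL4 was higher on 60 than on 6 mM KNO3, by 0.50 in long-term and 0.44 in shift roots.

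MSL5 averaged 2.93 ± 0.34 CPM with isoxaben and 9.16 ± 0.87 CPM with mock in long-term roots on 60 mM KNO3 (SD, n = 3 each), a log2 fold change of -1.65 (adjusted p = 5.4e-12 by edgeR). In shift roots the change was -0.40 (adjusted p = 0.0049), and at 6 mM it was not called. The isoxaben effect at 60 minus that at 6 mM was -1.55 in long-term roots (adjusted p = 4.4e-08 by edgeR). Of the 6 relatives tested, 2 were lower and 0 higher at 60 mM in each exposure, with a median log2 fold change of -0.037 in long-term and -0.045 in shift roots, beside 0.0088 and -0.0026 over all genes, of which 31.9% and 12.9% were called. MSL9 was the MSL gene called higher.

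The OSCA family has 14 other loci, all tested. In long-term roots on 60 mM KNO3, 2 were higher and 3 lower with isoxaben, at a median log2 fold change of -0.039 for the 14 loci, where 31.9% of all genes were called. In shift roots on 60 mM, 1 was higher and 5 were lower, with a median of -0.19, beside 12.9% of all genes called. No locus was called at 6 mM in either exposure. AT4G22120 averaged 48.4 ± 5.1 CPM with isoxaben and 74.9 ± 0.65 CPM with mock in long-term roots on 60 mM (SD, n = 3 each), a log2 fold change of -0.63 (adjusted p = 5.9e-08 by edgeR).

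ERD4 (AT1G30360), named for early induction by dehydration, was the most abundant locus named here from the list and had a log2 fold change of -0.50 in long-term and -0.28 in shift roots on 60 mM. AT1G11960 rose in both, by 0.54 and 0.29. AT3G21620 was lower in both, with log2 fold changes of -0.50 and -0.72, and was higher on 60 than on 6 mM KNO3 in mock roots by 0.71 in long-term and 0.96 in shift roots. OSCA1 itself was not called in either exposure.

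**Figure D4:**
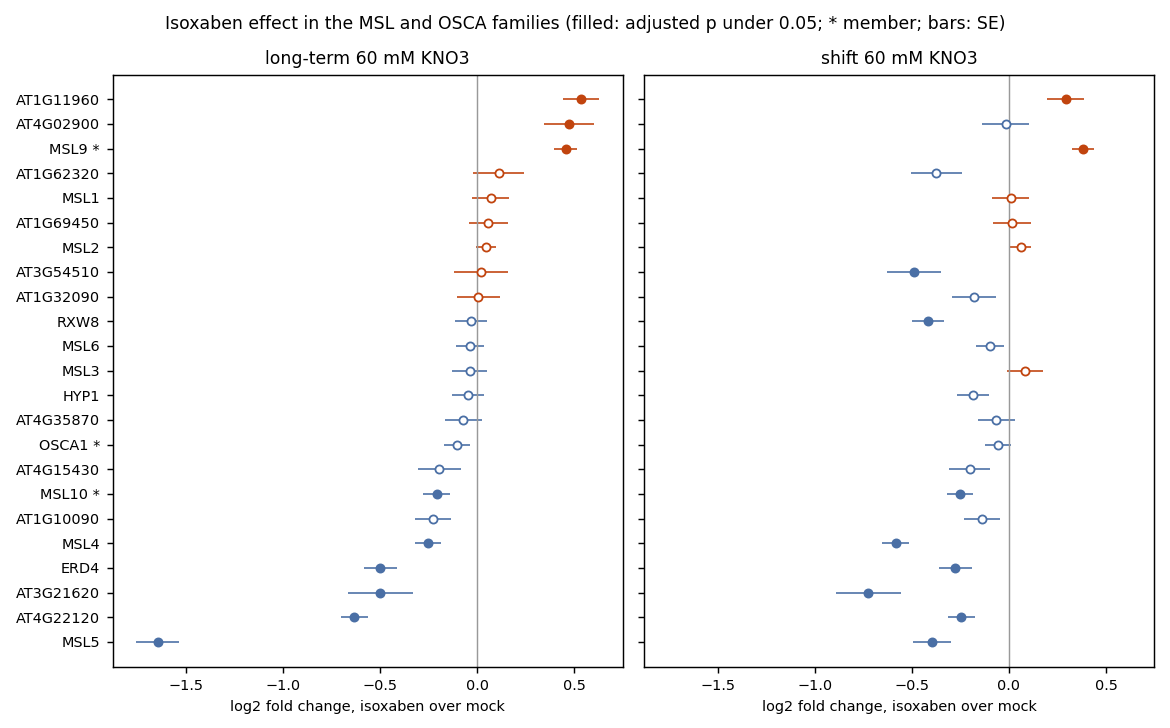
Log2 fold change of isoxaben over mock with SE for every tested MSL and OSCA family gene in long-term and shift roots on 60 mM KNO3, sorted by the long-term value; members are starred and filled points have an adjusted p under 0.05. MSL5 has the lowest value in long-term roots at -1.65, and MSL9 is the filled MSL gene on the positive side in both.

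Other calcium-permeable channels, 27 tested of 30 listed (cyclic nucleotide-gated channels, clade 3 glutamate receptor-like channels, TPC1, ANN1 and DEK1), are other routes of calcium entry. On 60 mM KNO3, 11 were higher and 4 lower with isoxaben in long-term roots (median log2 fold change 0.18; 31.9% of all genes called), and 5 were higher and 2 lower in shift roots (median 0.025; 12.9% of all genes called). CNGC19, linked to calcium signals of wounding and defence, averaged 6.11 ± 0.93 CPM with isoxaben and 0.583 ± 0.084 CPM with mock in long-term roots on 60 mM (SD, n = 3 each). Its log2 fold change was 3.38 in long-term and 2.48 in shift roots, and 2.05 in long-term roots on 6 mM. CNGC2, a channel of immune calcium signalling, rose by 1.34 in long-term and 0.43 in shift roots on 60 mM. GLR3.4 and CNGC10 were lower on 60 than on 6 mM KNO3 in mock roots of both exposures.

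Of the genes for calcium pumps and exchangers, which clear calcium from the cytosol, 12 of 13 were tested. With isoxaben on 60 mM KNO3, 8 were higher and 2 lower in long-term roots (median log2 fold change 0.27; 31.9% of all genes called), and 4 were higher and 0 lower in shift roots (median 0.030; 12.9% of all genes called). On 6 mM, 2 were higher in long-term roots, ACA13 by 1.84 and CAX3 by 0.51, where 5.69% of all genes were called, and none in shift roots. On 60 mM, ACA13, a calcium pump, rose by 2.89 in long-term and 2.21 in shift roots on the log2 scale. CAX3, a proton-calcium exchanger of the vacuole, averaged 57.7 ± 7.8 CPM with isoxaben and 24.7 ± 2.2 CPM with mock in long-term roots on 60 mM (SD, n = 3 each). Its log2 fold change on 60 mM was 1.22 in long-term and 1.02 in shift roots. The isoxaben effect on CAX3 was larger at 60 than at 6 mM in both exposures, by 0.72 and 0.78 (adjusted p = 0.0015 and 0.0018 by edgeR). ACA12 rose by 1.14 in long-term and 0.80 in shift roots on 60 mM. In mock roots it was lower on 60 than on 6 mM, by a log2 fold change of -1.47 in long-term and -1.52 in shift roots. The 2 genes lower with isoxaben in long-term roots on 60 mM were ACA8 (log2 fold change -0.37, adjusted p = 0.000108 by edgeR) and ACA4 (-0.31, adjusted p = 0.00175 by edgeR).

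**Figure D5:**
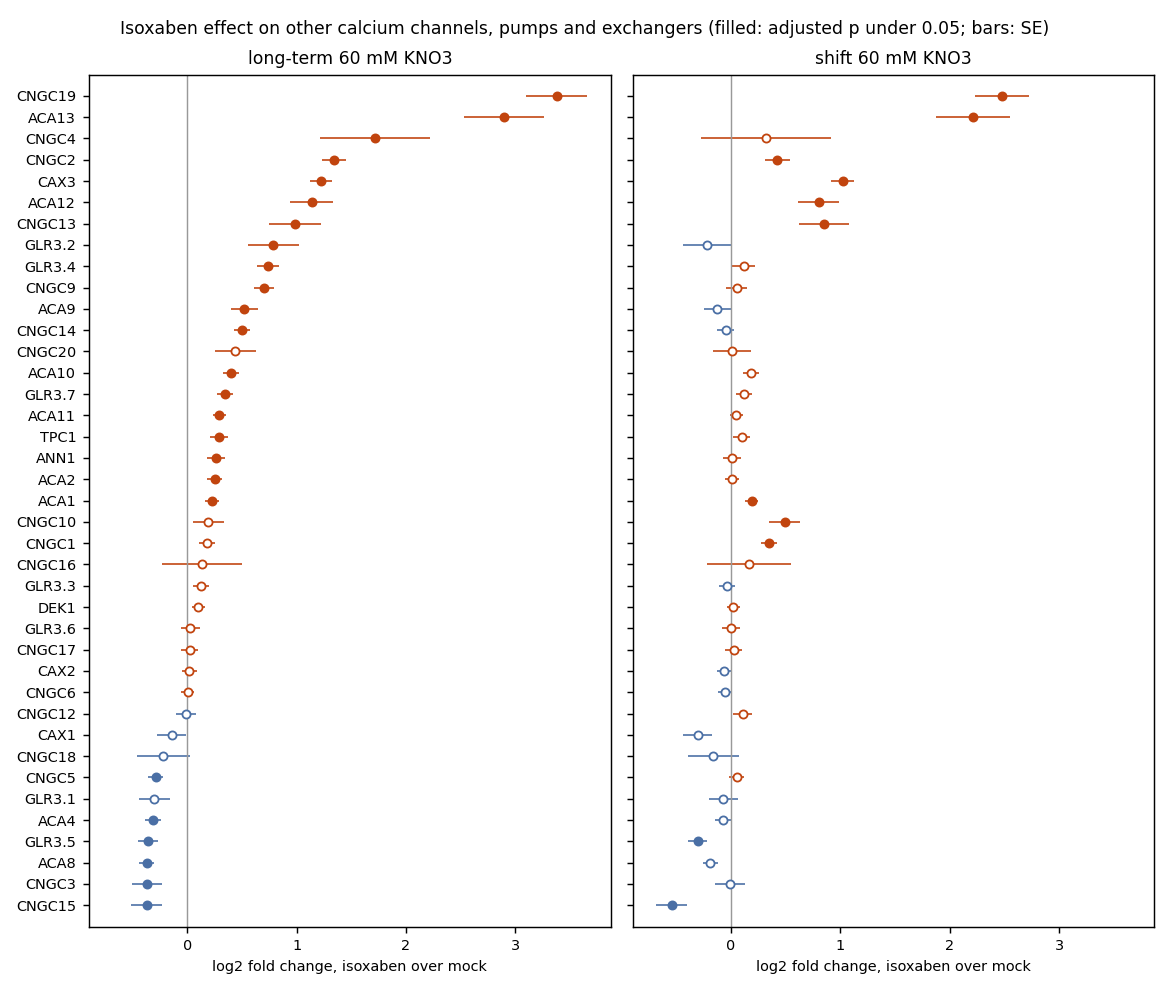
Log2 fold change of isoxaben over mock with SE for every tested gene of the calcium channel and calcium pump and exchanger lists, in long-term and shift roots on 60 mM KNO3, filled where the adjusted p was under 0.05. CNGC19 and ACA13 lie highest, at 3.38 and 2.89 in long-term roots.

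Of 6 other genes listed for wall integrity signalling, 2 were higher and 1 lower with isoxaben in long-term roots on 60 mM KNO3. In shift roots on 60 mM, 0 were higher and 1 lower. The shares of all genes called were 31.9% and 12.9%. RBOHD and RBOHF, which make extracellular superoxide, were higher in long-term roots on 60 mM, by 0.77 and 0.42 (adjusted p = 2.08e-05 and 4.07e-05 by edgeR). THE1, a receptor kinase that senses inhibited cellulose synthesis, was lower, with log2 fold changes of -0.22 there and -0.46 in shift roots on 60 mM. Its adjusted p by edgeR was 0.0455 in long-term roots, near the threshold, and 0.000271 in shift roots. FER, FEI1 and FEI2 were not called for any isoxaben effect. The median log2 fold change of the 6 genes was 0.10 in long-term and -0.00054 in shift roots on 60 mM.

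Over the 24 libraries, log2 CPM of MCA1 and MSL9 had a Pearson r of -0.68, MCA1 and OSCA1 0.66, and MSL9 and MSL10 -0.41. These libraries share groups, and the values describe the groups as much as the libraries. The genes most like each member in this measure were AT5G59680 (r = 0.938) and AT5G03995 (0.912) for MCA1, AT1G33670 (0.937) and AT4G16670 (0.923) for MSL9, ETP1 (0.877) and ERD6 (0.860) for OSCA1, SAHH2 (0.865) and BGAL3 (0.859) for MSL10, and VPS41 (0.818) and AT1G18910 (0.812) for PIEZO.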

How the data were processed

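Per the labels' protocols, libraries of polyadenylated root RNA were made for DNBSEQ sequencing. The submitters' processing notes name STAR 2.7.9a, DESeq2 1.32.0 and the TAIR10 build, with no role given. The authors deposited raw counts per gene, whole numbers in 1 column per library, and a table of normalised counts not used here. Strand setting, annotation version and the treatment of reads that match several places are not given in the sources used here. No window of 50 bases in any channel gene's exons recurred in the genome.

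Counts were tested as deposited with edgeR 4.0.16 (R 4.3.3): filterByExpr over 8 groups, TMM scaling, robust quasi-likelihood fit of 8 group means over 24 libraries, 17 comparisons, Benjamini-Hochberg adjustment over 20546 genes and a threshold of 0.05. CPM used the TMM-adjusted library size, and the SE was the log2 fold change over the root of the F statistic, an approximation. Exon lengths and promoters came from RefSeq's TAIR10.1 annotation. The fit was also run on counts simulated with the spread estimated from these data. That checks the code alone, since it cannot show whether this spread is right. Text names all 6 channel genes and some of the list members called in any comparison, chosen mainly by small adjusted p. For each channel gene it names the 2 genes with the highest r among those of at least 5 CPM. The channel genes and the lists were chosen with earlier results of these data known. Replicate numbers were not used to pair the libraries, since nothing states that they mark a shared run. The correlation of deviations between same-numbered libraries ran from -0.155 to 0.274. Its median was 0.0101, beside -0.0055 between libraries of different numbers, and whether they share a plate or run is not known. Alternatives were DESeq2 1.42.0, other scalings, no filter, only the groups compared, a replicate block and leaving out each library. Floors cover counting error only.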

Additional observations from a re-analysis of the deposited data

Results flagged for a closer look

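For 4 isoxaben effects the difference between conditions itself passed the edgeR test. The isoxaben effect on MSL9 at 60 minus that at 6 mM KNO3 was 0.42 in long-term roots (adjusted p = 0.000712) and 0.44 in shift roots (adjusted p = 0.00147), with all 3 isoxaben libraries above all 3 mock libraries at 60 mM in each. The same difference for MCA1 in long-term roots was -0.46 (adjusted p = 0.00119). The isoxaben effect on MCA1 in long-term minus that in shift roots at 60 mM was -0.43 (adjusted p = 0.00278), with all 3 isoxaben libraries below all 3 mock libraries in long-term roots. These 4 differences stayed past the threshold under each of the 18 alternatives run for them, with adjusted p-values of at most 0.00460, 0.00595, 0.00665 and 0.0164 in the order given. They share groups with each other.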

How the results depend on the processing

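All 11 calls of MSL9 and MCA1, the 4 interactions included, kept their direction and stayed past the threshold under every alternative run (DESeq2, RLE scaling, library totals, no low-count filter, only the groups compared, the replicate block, and each library left out). Each of the 6 calls of MSL10 and OSCA1 was lost under at least 2 alternatives, with its direction kept. In all, 17 of 1225 alternatives ended a call and 2 made one; their values stand beside each result above, and the cause was not tested. With only the groups compared in the fit, 1 channel gene was called for isoxaben in shift roots on 60 mM and 1 for shift over long-term isoxaben roots on 60 mM. Leaving out a library gave 1 to 3 calls for isoxaben in shift roots on 60 mM, 0 to 1 for KNO3 in shift mock roots, 1 to 2 for KNO3 in shift isoxaben roots, 0 to 1 for shift over long-term mock roots on 60 mM and 1 to 2 for shift over long-term isoxaben roots on 60 mM. Counts that changed less in proportion are not in this list. Some libraries left out also ended the MSL10 call for isoxaben in long-term roots on 60 mM. Others ended the OSCA1 call for KNO3 in long-term isoxaben roots. With the replicate number as a block, the members called were 3 for isoxaben in long-term and 2 in shift roots on 60 mM, and no call changed; same-numbered libraries had a median correlation of 0.0101. Among all genes, only the groups compared gave 1368 calls for shift over long-term isoxaben roots on 6 mM (637 in the full fit) and 3219 on 60 mM (5103), and DESeq2 gave 113 and only the groups compared 119 for isoxaben by exposure at 6 mM (54). Leaving out a library gave 747 to 939 calls for isoxaben in long-term roots on 6 mM (1170), 105 to 149 in shift roots on 6 mM (195), 887 to 1167 for KNO3 in long-term (1391) and 1031 to 1459 in shift mock roots (1685), 40 to 105 for shift over long-term mock roots on 6 mM (132) and 280 to 598 on 60 mM (679), 191 to 485 for shift over long-term isoxaben roots on 6 mM (637), and 18 to 66 for isoxaben by exposure at 6 mM (54). Library totals in place of TMM shifted groups by at most 0.074 on the log2 scale. Depth limits MCA2, with 0 to 8 counts a library. A further 68 alternatives changed the sign of a log2 fold change that was called neither there (adjusted p at least 0.72) nor in the full fit (size at most 0.0743). In their list, exposure is shift over long-term roots, KNO3 is 60 over 6 mM, and the interactions are the isoxaben effect at 60 minus 6 mM or in long-term minus shift roots. Under library totals alone the values were -0.0093 for MSL9 in isoxaben long-term 6 mM, -0.0098 for MCA1 in isoxaben long-term 6 mM, -0.015 for OSCA1 in isoxaben long-term 6 mM, -0.00031 for OSCA1 in isoxaben shift 6 mM, 0.015 for MCA1 in isoxaben shift 60 mM, 0.0053 for OSCA1 in exposure 6 mM mock, 0.0092 for MSL9 in exposure 6 mM isoxaben, 0.020 for OSCA1 in exposure 6 mM isoxaben, 0.034 for PIEZO in exposure 60 mM isoxaben, -0.028 for MCA1 in isoxaben by exposure 6 mM, -0.015 for OSCA1 in isoxaben by exposure 6 mM and -0.011 for MSL10 in isoxaben by exposure 60 mM. The others were 0.00069 for MSL9 in KNO3 long-term mock (no low-count filter), 0.00067 for MSL9 in KNO3 long-term mock (replicate block) and -0.00044 for MCA1 in isoxaben by exposure 6 mM (only the groups compared). Over the libraries left out, such values ranged as follows. MCA1 ranged from -0.087 to 0.0012 for exposure 6 mM isoxaben, from -0.11 to 0.023 for exposure 60 mM mock, from -0.080 to 0.0083 for isoxaben by KNO3 shift, from -0.044 to 0.044 for isoxaben by exposure 6 mM, from -0.0029 to 0.085 for isoxaben shift 6 mM and from -0.043 to 0.027 for isoxaben shift 60 mM. MSL10 ranged from -0.018 to 0.073 for KNO3 long-term mock, from -0.014 to 0.090 for exposure 6 mM mock, from -0.0025 to 0.13 for isoxaben by KNO3 by exposure, from -0.089 to 0.014 for isoxaben by exposure 6 mM, from -0.032 to 0.085 for isoxaben by exposure 60 mM and from -0.081 to 0.0076 for isoxaben shift 6 mM. MSL9 ranged from -0.065 to 0.054 for KNO3 long-term mock, from -0.059 to 0.0026 for exposure 60 mM mock, from -0.074 to 0.045 for isoxaben by KNO3 by exposure and from -0.030 to 0.089 for isoxaben long-term 6 mM. OSCA1 ranged from -0.053 to 0.032 for exposure 6 mM isoxaben, from -0.056 to 0.048 for exposure 6 mM mock, from -0.0035 to 0.14 for exposure 60 mM isoxaben, from -0.023 to 0.065 for exposure 60 mM mock, from -0.14 to 0.010 for isoxaben by KNO3 by exposure, from -0.042 to 0.063 for isoxaben by exposure 6 mM, from -0.13 to 0.023 for isoxaben by exposure 60 mM, from -0.0041 to 0.072 for isoxaben long-term 6 mM and from -0.035 to 0.069 for isoxaben shift 6 mM. PIEZO ranged from -0.029 to 0.060 for exposure 6 mM mock, from -0.0020 to 0.11 for isoxaben by KNO3 by exposure, from -0.047 to 0.039 for isoxaben by KNO3 long-term, from -0.039 to 0.0047 for isoxaben long-term 6 mM and from -0.055 to 0.022 for isoxaben long-term 60 mM.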
